A study of Arabidopsis thaliana with 10 samples.

Results

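Small RNAs of Arabidopsis pollen that expressed the ribonuclease RTL1 from the MGH3 promoter were set directly against those of pollen that expressed it from the LAT52 promoter, in 4 of the 10 small RNA libraries of the series. Each construct had 2 libraries, from independent homozygous lines, and they were chosen by their labels alone. The 2 libraries of untransformed Col-0 pollen (WT Col-0) took no part in the tests, and their values are given last as the background. The tested plants were pMGH3::RTL1-Myc in Col-0 and pLAT52::RTL1-Myc in Col-0, so both groups carry extra copies of RTL1 and differ in the promoter. The MGH3 promoter is active in the male germline, which forms at the first pollen mitosis, whereas the LAT52 promoter is active in the late microspore and then mainly in the vegetative cell. All libraries were made from whole mature pollen, in which fewer cells of a type and less RNA per cell cannot be told apart. The comparison asks where the small RNAs of pollen differ when the same nuclease acts in one or the other cell lineage.

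RTL1 is an RNase III-like protein that cuts double-stranded RNA before Dicer-like enzymes can turn it into small interfering RNAs (siRNAs). In plants, 24-nt siRNAs come mostly from transcripts of RNA polymerase IV and guide DNA methylation at transposable elements (TEs), while 21-nt and 22-nt siRNAs come mostly from messenger RNAs and reactivated TEs and act on RNA. MicroRNAs are cut from folded single-stranded precursors and mostly measure 21 nt. For these reasons the signal of each locus was summed at all lengths (18 to 30 nt), at 21 and 22 nt, and at 23 and 24 nt.

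The mature microRNAs of MIR843, MIR830, MIR836, MIR157a and MIR159c, which had the largest differences of microRNA genes, are shown with those of MIR835, the microRNA gene called lower, MIR823, which acts on CMT3, and MIR161 and MIR173, which start secondary siRNAs. They run 5′ to 3′ with the seed, bases 2 to 8, in capitals, as annotated by RefSeq on the TAIR10.1 assembly. The signal was deposited per gene and not per arm, so both arms are shown where the gene and not the arm is described.
miR843: uUUAGGUCgagcuucauugga
miR830-5p: uCUUCUCCaaauaguuuagguu
miR830-3p: uAACUAUUuugagaagaagug
miR836: uCCUGUGUuuccuuugaugcgugg
miR157a-5p: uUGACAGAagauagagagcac
miR157a-3p: gCUCUCUAgccuucugucauc
miR159c: uUUGGAUUgaagggagcuccu
miR823: uGGGUGGUgaucauauaagau
miR835-5p: uUCUUGCAuauguucuuuauc
miR835-3p: uGGAGAAGauacgcaagaaag
miR161.1: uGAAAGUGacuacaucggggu
miR161.2: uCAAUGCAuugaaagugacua
miR173-5p: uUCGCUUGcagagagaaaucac
On the plus strand lie miR843 at chr3:17742147-17742167, miR159c at chr2:18994826-18994846, miR161.1 at chr1:17825731-17825751, miR161.2 at chr1:17825722-17825742 and miR173-5p at chr3:8236161-8236182. On the minus strand lie miR830-5p at chr1:4820473-4820494, miR830-3p at chr1:4820406-4820426, miR836 at chr2:10634331-10634354, miR157a-5p at chr1:24913276-24913296, miR157a-3p at chr1:24913205-24913225, miR823 at chr3:4496826-4496846, miR835-5p at chr1:28544784-28544804 and miR835-3p at chr1:28544471-28544491.

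The deposited unit, a signal in RPM that divides each read by its number of genomic hits, summed to 8672909 and 8060209 RPM in pMGH3::RTL1 libraries, against 5215730 and 6641136 RPM in pLAT52::RTL1 libraries. Behind these sums stood 8174260 and 5517930 hit-weighted reads on genes in pMGH3::RTL1 libraries, against 10349598 and 6963483 in pLAT52::RTL1 libraries. RNAs of 18 to 20 nt, which include breakdown products, made up 26.3% and 27.2% of the signal in pMGH3::RTL1, 16.5% and 22.8% in pLAT52::RTL1, and 14.04% and 33.7% in WT Col-0 pollen. RNAs of 25 to 30 nt made up 11.3% and 4.17% in pMGH3::RTL1, 12.2% and 5.01% in pLAT52::RTL1, and 5.23% and 2.31% in WT Col-0 pollen, and were thus more abundant in replicate 1 of each group. Log2 signals of both libraries of a construct correlated across the tested loci, which are not independent replicates, with a Pearson r of 0.953 in pMGH3::RTL1 and 0.957 in pLAT52::RTL1 pollen.

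RTL1 itself (AT4G15417, chr4:8821651-8823076) gave 1023 and 302 RPM in pMGH3::RTL1 pollen, against 93.7 and 23.8 RPM in pLAT52::RTL1 and 4.30 and 11.9 RPM in WT Col-0 pollen. Every RTL1 library thus lay above both WT Col-0 libraries, and the pMGH3::RTL1 libraries lay above the pLAT52::RTL1 libraries, with a log2 difference of 3.52 (standard error 0.65, adjusted p = 0.0157 in limma). The difference was 2.56 without pLAT52::RTL1 replicate 2 and 4.49 without pLAT52::RTL1 replicate 1. Reads of the transgene and of the native gene cannot be told apart, and small RNA fragments do not measure the protein. RTL2 and RTL3, the related genes listed with it, stayed under the filter. MGH3 (AT1G19890), the germline histone gene that gave its promoter, had 20.7 and 20.5 RPM in pMGH3::RTL1, against 28.7 and 45.3 RPM in pLAT52::RTL1 pollen, a log2 difference of -0.78 that did not pass the threshold (adjusted p = 0.147 in limma). It did pass when scaled to the summed signal, the microRNA genes or the sum without structural RNAs, and over the alternatives that keep every library its adjusted p in limma ran from 0.0118 to 0.288.

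Over all TE genes and with the scaling as deposited, pMGH3::RTL1 pollen held more 21-nt and 22-nt and less 23-nt and 24-nt signal than pLAT52::RTL1 pollen. The TE genes summed at 21 and 22 nt to 161200 and 176400 RPM in pMGH3::RTL1 pollen, against 120300 and 116600 RPM in pLAT52::RTL1 and 125500 and 176100 RPM in WT Col-0 pollen. They summed at 23 and 24 nt to 244100 and 244900 RPM in pMGH3::RTL1 pollen, against 321700 and 309000 RPM in pLAT52::RTL1 and 350300 and 278400 RPM in WT Col-0 pollen. The constructs did not overlap in either length class, while the WT Col-0 libraries spanned much of the gap. As a share of the summed signal of a library, the 21-nt and 22-nt RNAs of TE genes did overlap, with 1.86% and 2.19% in pMGH3::RTL1, 2.31% and 1.76% in pLAT52::RTL1, and 3.35% and 2.58% in WT Col-0 pollen. Their 23-nt and 24-nt RNAs held 2.81% and 3.04% in pMGH3::RTL1, 6.17% and 4.65% in pLAT52::RTL1, and 9.36% and 4.08% in WT Col-0 pollen, without overlap between the constructs. The ratio of 23-nt and 24-nt to 21-nt and 22-nt signal, in which the scaling of a library cancels, was 1.51 and 1.39 in pMGH3::RTL1, 2.67 and 2.65 in pLAT52::RTL1, and 2.79 and 1.58 in WT Col-0 pollen. The share of 18-nt to 20-nt RNAs was lowest in the 3 libraries with the highest ratio, and its part in this result was not tested. These sums were not tested, since with 2 libraries against 2 the smallest two-sided p of an exact permutation test is 0.33. At single lengths, 21-nt RNAs of TE genes amounted to 85397 and 92989 RPM in pMGH3::RTL1 against 64092 and 62297 RPM in pLAT52::RTL1 pollen, and 24-nt RNAs to 179029 and 182409 RPM in pMGH3::RTL1 against 246699 and 231688 RPM in pLAT52::RTL1 pollen.

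**Figure D1:**
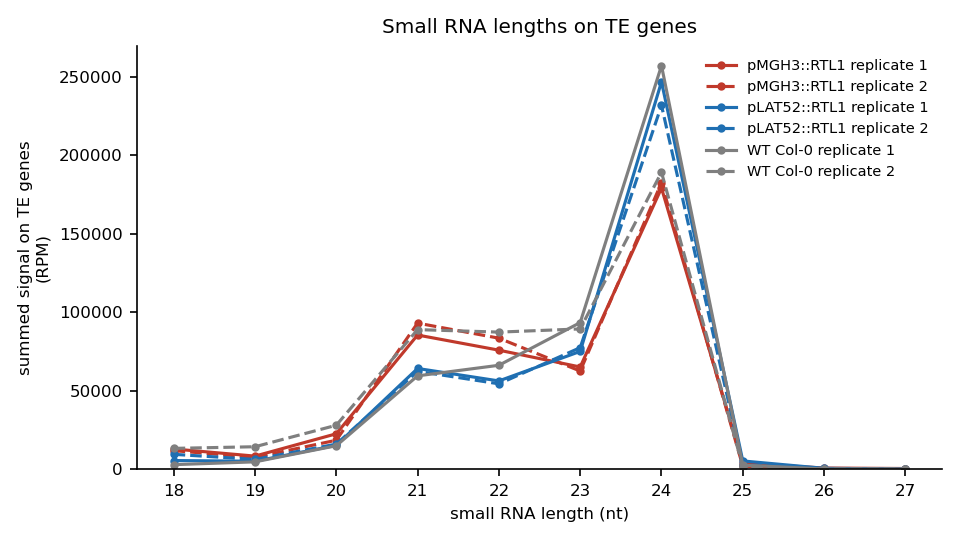
Summed signal of all TE genes (y axis, RPM) by RNA length (x axis, nt), with a line for each pMGH3::RTL1, pLAT52::RTL1 and WT Col-0 library. Both pMGH3::RTL1 libraries lie above both pLAT52::RTL1 libraries at 21 and 22 nt and below them at 23 and 24 nt, with 179029 and 182409 RPM at 24 nt in pMGH3::RTL1 against 246699 and 231688 RPM in pLAT52::RTL1 pollen.

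Locus by locus, limma with Benjamini-Hochberg adjusted p under 0.05 called loci in both directions, and the balance turned with the RNA length. At 18 to 30 nt, 309 of 11241 tested loci were higher in pMGH3::RTL1 pollen (2.75%) and 398 lower (3.54%), 6.29% in all. Among the 5018 loci tested at 21 and 22 nt, 1234 were higher (24.6%) and 147 lower (2.93%), 27.5% in all, and among the 6975 tested at 23 and 24 nt, 80 were higher (1.15%) and 672 lower (9.63%), 10.8% in all. The median log2 difference of all tested loci was -0.00049 at 18 to 30 nt, 0.63 at 21 and 22 nt and -0.27 at 23 and 24 nt. Other scalings moved this median by -0.51 (summed signal), -0.44 (microRNA genes), -0.32 (sum without structural RNAs) and -0.67 (mapped reads of the study, chosen after seeing the data). They left the 21-nt and 22-nt call of few loci: 85, 70, 90 and 22 were then higher and 169, 137, 117 and 86 lower, so that higher loci were 33.5%, 33.8%, 43.5% and 20.4% of the calls, against 89.4% as deposited. At 18 to 30 nt higher loci were 43.7% of the calls as deposited and 6.41%, 7.77%, 12.5% and 3.27% under the same scalings. They were 10.6% of the calls at 23 and 24 nt as deposited and 0.979%, 1.24%, 2.25% and 0.369%. Called under each of the 4 scalings planned were 130 of the 309 higher and 397 of the 398 lower loci at 18 to 30 nt, 67 of 1234 and 115 of 147 at 21 and 22 nt, and 21 of 80 and 672 of 672 at 23 and 24 nt. No scaling raised the differences, the median ratio moving them by -0.00094. Lower loci and medians below 0 thus had to keep their direction, so their persistence across scalings is no support. Many calls passed the filter of 12 reads only through the construct where they were high. Of the lower loci, 145 at 18 to 30 nt, 40 at 21 and 22 nt and 349 at 23 and 24 nt averaged under 12 reads in pMGH3::RTL1 pollen, and of the higher loci 5, 107 and 1 averaged under 12 reads in pLAT52::RTL1 pollen. Such loci had to differ to be tested, and their numbers are given as a description. They included AT5G21125, AT1G55535, UTR1, AT4G02620 and DAZ2 at 18 to 30 nt, and AT5G50040 and AT3G10460 at 21 and 22 nt. At 23 and 24 nt they included CPK20, PRF5, AT4G17140 and MIR836.

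Leaving out pMGH3::RTL1 replicate 1, pMGH3::RTL1 replicate 2, pLAT52::RTL1 replicate 1 or pLAT52::RTL1 replicate 2, in this order, left 0, 1, 123 and 0 higher and 14, 5, 37 and 0 lower loci at 21 and 22 nt. At 23 and 24 nt the same fits called 215, 179, 128 and 21 higher and 1852, 1619, 245 and 182 lower loci, and at 18 to 30 nt 268, 325, 393 and 302 higher and 940, 723, 231 and 332 lower loci. Called under all 4 scalings and without each library were 116 higher and 184 lower loci at 18 to 30 nt, 16 higher and 149 lower loci at 23 and 24 nt, and 0 loci at 21 and 22 nt. Of the named loci below at 18 to 30 nt, AT5G21125 lost its call without pLAT52::RTL1 replicate 1, AT1G24530 and TET12 without pLAT52::RTL1 replicate 2, and MIR835, TAS1A, TAS1C and TAS2 without 1 or more libraries. At 23 and 24 nt, AT5G21125, AT1G24530, MIR836, PRF5, TAS1A, TAS1B and TAS2 lost theirs without a pLAT52::RTL1 library. Every 21-nt and 22-nt call described below was lost without at least 1 library.

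**Figure D2:**
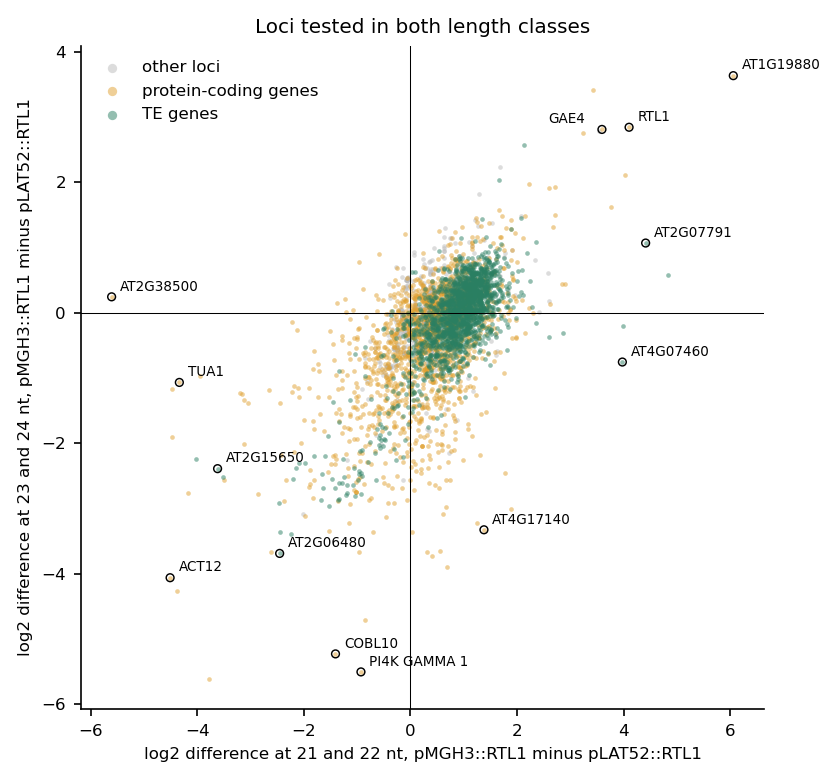
Log2 difference between pMGH3::RTL1 and pLAT52::RTL1 pollen (pMGH3::RTL1 minus pLAT52::RTL1) at 21 and 22 nt (x axis) and at 23 and 24 nt (y axis) for the 4087 loci tested in both classes, with TE genes, protein-coding genes and other loci in separate colours and named loci circled. Most TE genes lie right of 0 at 21 and 22 nt (median 0.95, and 0.30 with the mapped reads of the study) and on both sides of 0 at 23 and 24 nt (median -0.17), while RTL1 and GAE4 lie far above 0 and COBL10 and PI4K GAMMA 1 far below 0 at 23 and 24 nt.

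Among the loci higher in pMGH3::RTL1 pollen at 18 to 30 nt, 157 were protein-coding genes (2.4% of those tested), 60 TE genes (1.73%), 30 tRNA genes (4.94%), 19 microRNA genes (13.1%) and 15 snoRNA genes (32.6%), beside 2.75% of all loci. The largest difference was at AT1G19880 (chr1:6900337-6904155), a gene of the RCC1 family of chromatin-binding regulators that lies next to MGH3 (chr1:6904963-6906028). AT1G19880 had 172 and 368 RPM in pMGH3::RTL1 pollen, against 18.1 and 3.82 RPM in pLAT52::RTL1 and 9.04 and 6.5 RPM in WT Col-0 pollen (log2 difference 4.72, standard error 0.59, adjusted p = 0.0021 in limma). Its pLAT52::RTL1 values spanned the WT Col-0 values, and both pMGH3::RTL1 libraries lay above them. MIR843 (AT3G48057), whose mature sequence heads those above, had 2058 and 2315 RPM in pMGH3::RTL1 pollen, against 367 and 31.5 RPM in pLAT52::RTL1 and 853 and 1100.0 RPM in WT Col-0 pollen (log2 difference 4.32, adjusted p = 0.0213 in limma). Here pLAT52::RTL1 pollen lay below WT Col-0 pollen and pMGH3::RTL1 pollen above it, and the difference was 2.57 without pLAT52::RTL1 replicate 2 and 6.07 without pLAT52::RTL1 replicate 1.

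The TE gene AT2G07791 (chr2:3559149-3561620), an ATHILA4A retroelement, had 3212 and 4238 RPM in pMGH3::RTL1 pollen, against 591 and 126 RPM in pLAT52::RTL1 and 1103 and 1658 RPM in WT Col-0 pollen (log2 difference 3.75, adjusted p = 0.00592 in limma). Its 21-nt RNAs made up 91.3% of the signal in pMGH3::RTL1 and 70.5% in pLAT52::RTL1 pollen. AT1G49260, a coding gene, had 437 and 93.5 RPM in pMGH3::RTL1 against 18.7 and 13.4 RPM in pLAT52::RTL1 pollen (log2 difference 3.6, adjusted p = 0.00855 in limma), so the pMGH3::RTL1 lines themselves differed widely. The TE genes AT3G31940 and AT4G07460 (the second an ATHILA4A copy) were higher by 3.43 and 2.88 on the log2 scale (adjusted p = 0.00651 and 0.00174 in limma).

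Of the 398 loci lower in pMGH3::RTL1 pollen at 18 to 30 nt, 262 were protein-coding genes (4.01% of those tested) and 120 TE genes (3.45%), beside 3.54% of all loci. AT2G38500, a gene of the 2-oxoglutarate-dependent oxygenase superfamily, had 42.4 and 49.7 RPM in pMGH3::RTL1 pollen, against 1436 and 994 RPM in pLAT52::RTL1 and 18.9 and 58.5 RPM in WT Col-0 pollen (log2 difference -4.67, standard error 0.24, adjusted p = 0.000126 in limma). Its pMGH3::RTL1 libraries lay within the WT Col-0 range, and both pLAT52::RTL1 libraries lay far above it. At AT1G55535 pLAT52::RTL1 pollen also lay far above WT Col-0 pollen, and pMGH3::RTL1 pollen somewhat below it, with 3.18 and 8.76 RPM in pMGH3::RTL1 pollen, against 294 and 108 RPM in pLAT52::RTL1 and 15.1 and 14.1 RPM in WT Col-0 pollen. UTR1 (AT2G02810), a UDP-galactose transporter, had 6.37 and 7.30 RPM in pMGH3::RTL1 pollen, against 175 and 115 RPM in pLAT52::RTL1 and 6.45 and 5.42 RPM in WT Col-0 pollen. AT4G02620, a vacuolar ATPase subunit gene that overlaps AT4G02610, had 10.6 and 4.38 RPM in pMGH3::RTL1 against 111 and 272 RPM in pLAT52::RTL1 pollen. The log2 differences of AT1G55535, UTR1 and AT4G02620 were -4.81, -4.20 and -4.47. All 3 passed the filter only through pLAT52::RTL1 pollen, and their values are given without a test.

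A different order was found at AT5G21125 (chr5:7185048-7185428), with 1.06 and 0.730 RPM in pMGH3::RTL1 pollen, against 77.6 and 62.9 RPM in pLAT52::RTL1 and 62.8 and 61.8 RPM in WT Col-0 pollen. Here pLAT52::RTL1 pollen stood at the WT Col-0 level and pMGH3::RTL1 pollen had no more than the worth of a single read per library. It passed the filter only through pLAT52::RTL1 pollen, and the fitted log2 difference of -5.23 depends on the pseudocount, at -6.16 with 0.1 and -3.67 with 5. The TE genes AT2G06480 and AT2G10790, both in pericentromeric windows, showed the same order. AT2G06480 had 56.6 and 43.9 RPM in pMGH3::RTL1 pollen, against 495 and 612 RPM in pLAT52::RTL1 and 468 and 477 RPM in WT Col-0 pollen (log2 difference -3.44, adjusted p = 0.000287 in limma). AT2G10790 had a log2 difference of -3.19 (adjusted p = 0.000287 in limma).

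**Figure D3:**
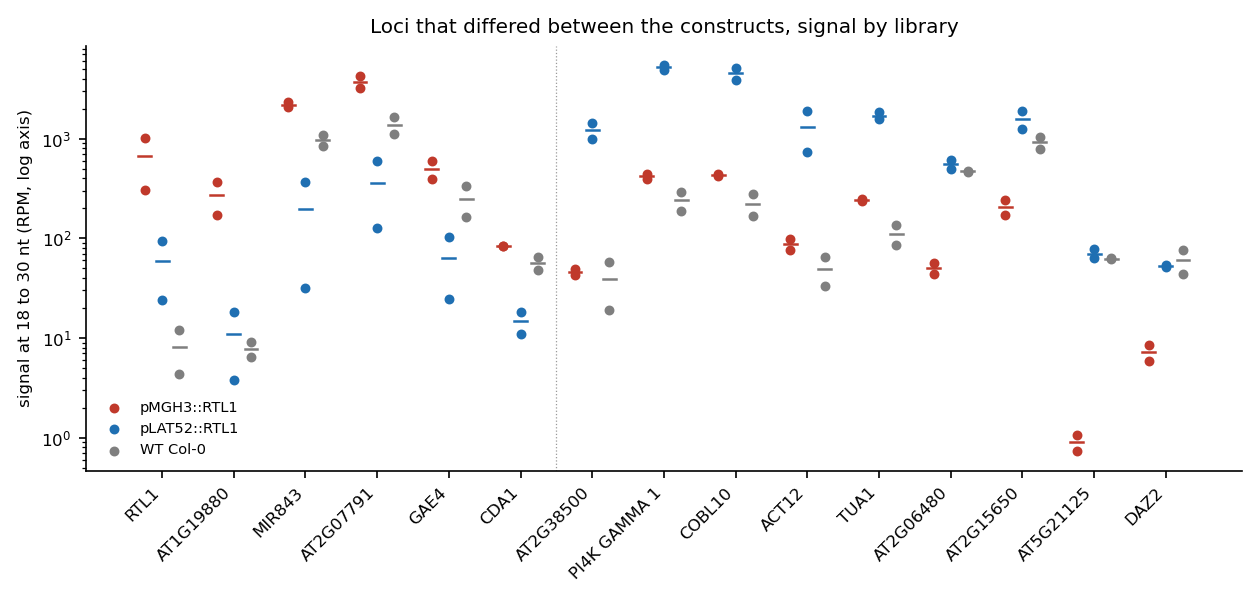
Signal at 18 to 30 nt (y axis, RPM, log axis) of loci that differed between the constructs, with a point for each library and a bar for each mean, for pMGH3::RTL1, pLAT52::RTL1 and WT Col-0 pollen from left to right. Left of the dotted line are loci higher in pMGH3::RTL1 pollen, such as RTL1 with 1023 and 302 RPM against 93.7 and 23.8 RPM in pLAT52::RTL1 pollen, and right of it loci lower there, some with WT Col-0 pollen near pMGH3::RTL1 pollen (AT2G38500) and some with WT Col-0 pollen near pLAT52::RTL1 pollen (AT5G21125).

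At 21 and 22 nt, pMGH3::RTL1 pollen was higher at 744 and lower at 42 of 1805 tested TE genes, with a median log2 difference of 0.95 beside 0.63 for all loci. The higher TE genes were 41.2% of those tested, beside 24.6% of all loci. Among protein-coding genes 395 of 2376 were higher (16.6%) and 102 lower, with a median of 0.49. The median of TE genes stayed above 0 under every scaling (0.30 to 0.95), but between 4 and 753 of them were called higher, and the median of protein-coding genes turned to -0.15 with the mapped reads of the study. TE genes near centromeres and on the arms gave similar shares, with 463 of 1054 and 281 of 751 higher. The largest TE differences at these lengths were at AT3G31940, AT2G07791 and AT5G29762, of which the last 2 are ATHILA4A copies. AT3G31940 had 319 and 444 RPM in pMGH3::RTL1 against 52.8 and 2.29 RPM in pLAT52::RTL1 pollen (log2 difference 4.83, adjusted p = 0.017 in limma). Its difference was 2.81 without pLAT52::RTL1 replicate 2 and 6.84 without pLAT52::RTL1 replicate 1. This call was lost when scaled to the microRNA genes or the sum without structural RNAs. AT2G07791 had 2991 and 3975 RPM in pMGH3::RTL1 against 473 and 54.5 RPM in pLAT52::RTL1 pollen (4.41, adjusted p = 0.0115 in limma). AT5G29762 had 325 and 444 RPM in pMGH3::RTL1 against 56.1 and 9.18 RPM in pLAT52::RTL1 pollen (3.98, adjusted p = 0.00918 in limma). In each case the groups did not overlap, which is no further evidence, since these TE genes were picked as the largest calls. The pLAT52::RTL1 lines differed from each other more than the pMGH3::RTL1 lines did.

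Coding genes made up most of the largest decreases at 21 and 22 nt. ACT12, a pollen actin, had 23.1 and 24.4 RPM in pMGH3::RTL1 pollen, against 895 and 352 RPM in pLAT52::RTL1 and 11.9 and 14.6 RPM in WT Col-0 pollen (log2 difference -4.51, adjusted p = 0.00109 in limma). It overlaps AT3G46530, and the strand used in counting is not given in the sources used here, so reads of overlapping genes cannot be told apart. AT3G28840 had 24.4 and 26.3 RPM in pMGH3::RTL1 against 720 and 470.2 RPM in pLAT52::RTL1 pollen, and AT5G50040, a pectin methylesterase inhibitor gene, 12.7 and 5.84 RPM in pMGH3::RTL1 against 207 and 220.3 RPM in pLAT52::RTL1 pollen. Both log2 differences were -4.47 (adjusted p = 0.000224 at AT3G28840 in limma). AT5G50040 passed the filter only through pLAT52::RTL1 pollen, and its values at these lengths are given without a test. AT3G10460, of the self-incompatibility protein S1 family, was listed at 0 RPM in both pMGH3::RTL1 libraries and at 54.9 and 10.5 RPM in pLAT52::RTL1 pollen at these lengths. It passed the filter only through pLAT52::RTL1 pollen, and its values are given without a test.

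At 23 and 24 nt, 221 of 3305 TE genes were lower in pMGH3::RTL1 pollen (6.69%) and 26 higher, with a median of -0.17. Of 2845 protein-coding genes 425 were lower (14.9%) and 42 higher, with a median of -0.52. Beside the 9.63% of all loci that were lower and their median of -0.27, the share of TE genes was thus smaller and that of protein-coding genes larger. Other scalings called between 108 and 859 TE genes and between 414 and 1209 protein-coding genes lower. Both medians were below 0 under every scaling, down to -0.83 for TE genes and -1.15 for protein-coding genes, as they had to be, since no scaling raised the differences. PI4K GAMMA 1 (AT2G40850), of the phosphatidylinositol 4-kinase family, had 120 and 90.6 RPM in pMGH3::RTL1 pollen, against 4544 and 4995 RPM in pLAT52::RTL1 and 60.7 and 55.3 RPM in WT Col-0 pollen at these lengths (log2 difference -5.50, standard error 0.19, adjusted p = 2.16e-05 in limma). COBL10 (AT3G20580), a membrane-anchored protein needed for pollen tube guidance, had 106 and 108 RPM in pMGH3::RTL1 pollen, against 3463 and 4719 RPM in pLAT52::RTL1 and 53.4 and 54.2 RPM in WT Col-0 pollen (log2 difference -5.23, adjusted p = 2.16e-05 in limma). CPK20, a calcium-dependent protein kinase, had 1.06 and 5.84 RPM in pMGH3::RTL1 against 240 and 93.5 RPM in pLAT52::RTL1 pollen (log2 difference -5.33). It passed the filter only through pLAT52::RTL1 pollen, and its values are given without a test. CPK20 had 6.88 and 3.25 RPM in WT Col-0 pollen. In these 3 genes WT Col-0 pollen was far nearer to pMGH3::RTL1 than to pLAT52::RTL1 pollen. PI4K GAMMA 1 overlaps AT2G40860.

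The TE genes AT2G06480, AT2G10790 and AT2G10770, which lie at chr2:2570237-2570643, chr2:4243132-4243592 and chr2:4236739-4237199, were lowest relative to pLAT52::RTL1 pollen at 23 and 24 nt. AT2G10770 had 74.9 and 56.4 RPM in pMGH3::RTL1 pollen, against 626 and 728 RPM in pLAT52::RTL1 and 558 and 508 RPM in WT Col-0 pollen (log2 difference -3.36, adjusted p = 0.000217 in limma). The log2 differences of AT2G06480 and AT2G10790 were -3.69 and -3.39 with the same adjusted p. The highest TE genes were the VANDAL3 copies AT2G07590 and AT2G07580, neighbours on chromosome 2, and AT3G29153. AT2G07590 had 279 and 259 RPM in pMGH3::RTL1 pollen, against 68.0 and 29.1 RPM in pLAT52::RTL1 and 216 and 156 RPM in WT Col-0 pollen (log2 difference 2.57, adjusted p = 0.00521 in limma). Among coding genes, AT1G04540 was higher by 2.75 (adjusted p = 0.00104 in limma).

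In the ratio of 23-nt and 24-nt to 21-nt and 22-nt signal within each library, 1335 of 4087 loci were lower in pMGH3::RTL1 pollen (32.7%) and 31 higher (0.759%), 33.4% in all, with a median log2 difference of -0.77. TE genes accounted for 808 of the lower and 3 of the higher loci, out of 1794 tested. Without pMGH3::RTL1 replicate 1, pMGH3::RTL1 replicate 2, pLAT52::RTL1 replicate 1 or pLAT52::RTL1 replicate 2 the lower loci numbered 463, 195, 975 and 1253 and the higher loci 21, 14, 33 and 30. Among the 4087 loci, 64 were higher in both length classes, 94 lower in both, 973 higher at 21 and 22 nt without a call at 23 and 24 nt (719 of them TE genes), and 276 lower at 23 and 24 nt without a call at 21 and 22 nt. Calls in opposite directions were rare, with 11 loci higher at 21 and 22 nt and lower at 23 and 24 nt, 0 of which were TE genes. HMA4, a zinc pump gene, was 1 of these loci, named after its values were seen, with log2 differences of 1.78 at 21 and 22 nt and -2.46 at 23 and 24 nt. VGDH2, a pollen pectin methylesterase gene named for the same reason, was alone in the reverse case. VGDH2 had 449 and 470.4 RPM in pMGH3::RTL1 against 896 and 900.3 RPM in pLAT52::RTL1 pollen at 21 and 22 nt, but 357 and 328 RPM against 216 and 183 RPM at 23 and 24 nt.

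The largest ratio differences came mostly from coding genes. The ratio was higher in pMGH3::RTL1 pollen by 5.85 on the log2 scale at AT2G38500 (adjusted p = 2.68e-05 in limma) and by 3.30 at AT5G50040. It was also higher by 3.27 at TUA1, a pollen alpha-tubulin gene that overlaps AT1G64750 (adjusted p = 0.000109 in limma). The ratio was lower at AT1G20490, the ATHILA4A copy AT4G07460 and AT4G17140, with log2 differences of -4.89, -4.73 and -4.70 (adjusted p = 0.00305 at AT4G07460 in limma). AT5G50040 and AT4G17140 passed the filter of a length class only through pLAT52::RTL1 pollen, and their ratios are given without a test. The ratio of AT1G20490, which had few 23-nt and 24-nt reads in pMGH3::RTL1 pollen, is given in the same way. AT4G17140 showed no difference at 18 to 30 nt past the threshold, with 42.4 and 44.6 RPM in pMGH3::RTL1 against 34.8 and 47.7 RPM in pLAT52::RTL1 pollen. By length it split, with 34.0 and 39.4 RPM in pMGH3::RTL1 against 14.6 and 12.4 RPM in pLAT52::RTL1 pollen at 21 and 22 nt, and 1.06 and 1.46 RPM against 15.6 and 29.6 RPM at 23 and 24 nt.

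At several coding genes lower in pMGH3::RTL1 pollen, a single RNA length held most of the signal in pLAT52::RTL1 pollen. At PI4K GAMMA 1 the commonest length was 22 nt in pMGH3::RTL1 pollen, with 17.5% of the signal, against 24 nt in pLAT52::RTL1 pollen, with 88.9%. These 24-nt RNAs amounted to 49.9 and 39.4 RPM in pMGH3::RTL1 pollen, against 4412 and 4862 RPM in pLAT52::RTL1 and 33.1 and 32.5 RPM in WT Col-0 pollen. At COBL10 the length was 23 nt (89.5%), with 49.9 and 62.8 RPM in pMGH3::RTL1 pollen, against 3425 and 4693 RPM in pLAT52::RTL1 and 29.7 and 35.8 RPM in WT Col-0 pollen. At AT2G38500 it was 21 nt (74.7%), at AT3G28840 and AT5G50040 22 nt (72.3% and 76.5%), at AT1G55535 and UTR1 25 nt (90.6% and 83.5%), and at AT4G02620 18 nt (86.9%).

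The lengths thus differed between the genes named, and at each of them the commonest length was the same in both pLAT52::RTL1 lines. At AT1G55535 the 25-nt RNAs were listed at 0 RPM in both pMGH3::RTL1 libraries, at 277 and 87.7 RPM in pLAT52::RTL1 pollen and at 0 RPM in both WT Col-0 libraries. At AT4G02620 the 18-nt RNAs were likewise listed at 0 RPM in pMGH3::RTL1 and WT Col-0 pollen and at 84.7 and 248 RPM in pLAT52::RTL1 pollen. ACT12 and TUA1 were spread over more lengths, with 38.5% at 23 nt and 57.2% at 22 nt in pLAT52::RTL1 pollen. With a limit of 70% chosen after the values were seen, 13 of the 262 lower coding genes (4.96%) had a single length at or above it in pMGH3::RTL1 pollen, against 30 (11.5%) in pLAT52::RTL1 pollen. In 18 of these 30 genes the single length was 24 nt, and in 4 it was 21 nt. Over all tested coding genes 268 reached the limit in pLAT52::RTL1 pollen, 173 of them at 24 nt and 76 at 21 nt, so 24 nt was the commonest in both. Of the 157 higher coding genes 13.4% reached the limit in pMGH3::RTL1 and also 13.4% in pLAT52::RTL1 pollen. Over all 6534 tested coding genes the shares were 5.4% in pMGH3::RTL1 against 4.1% in pLAT52::RTL1 pollen.

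**Figure D4:**
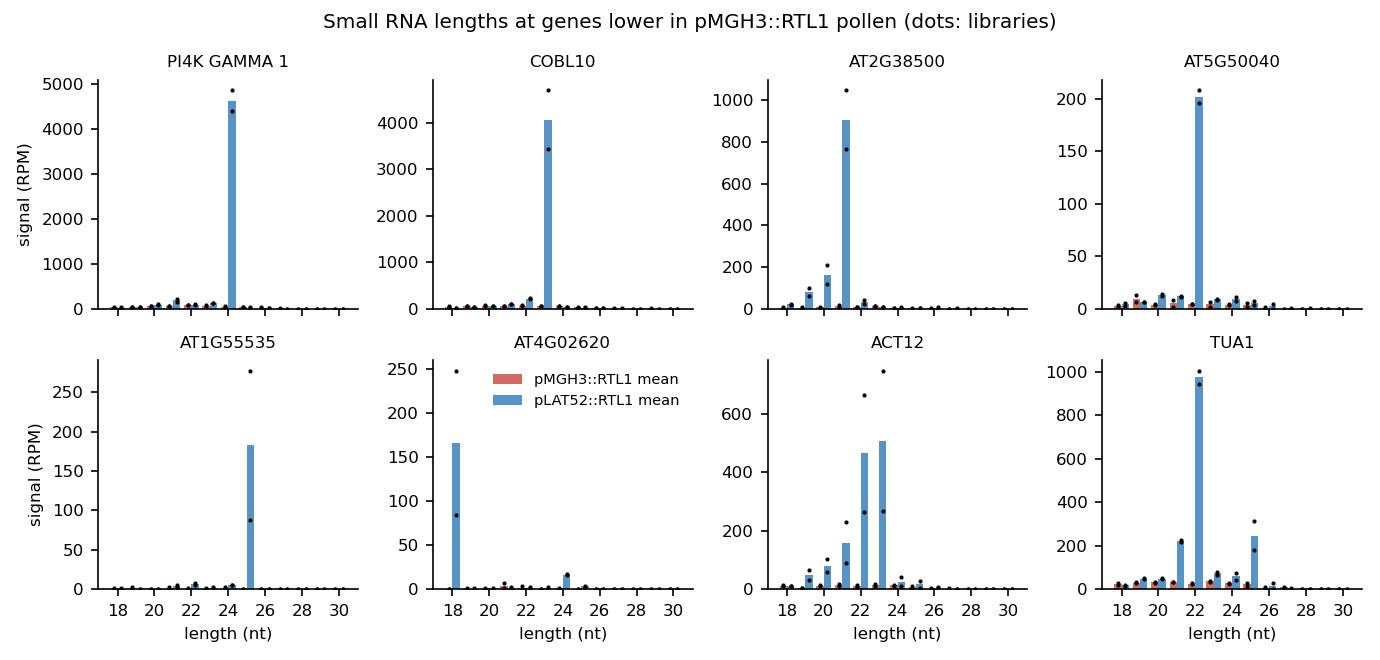
Signal (y axis, RPM, a separate scale for each gene) by RNA length (x axis, nt) at 8 coding genes lower in pMGH3::RTL1 pollen, with bars for the means of pMGH3::RTL1 and pLAT52::RTL1 pollen and a dot for each library. A single length stands out in pLAT52::RTL1 pollen at 24 nt in PI4K GAMMA 1, 23 nt in COBL10, 21 nt in AT2G38500, 22 nt in AT5G50040, 25 nt in AT1G55535 and 18 nt in AT4G02620.

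TE families differed in direction. Families could be given to 1427 of the 3895 TE genes, through sequences in the study's list of differentially methylated regions. The families described first were picked in the study from these libraries, so how they moved is not independent evidence. ATGP2, a Gypsy retroelement family, was lower in pMGH3::RTL1 pollen at all 16 copies at 18 to 30 nt and at 23 and 24 nt, and at 10 of 16 at 21 and 22 nt. Of all loci, 3.54% were lower at 18 to 30 nt, 9.63% at 23 and 24 nt and 2.93% at 21 and 22 nt. ATGP2 summed to 10390 and 8974 RPM in pMGH3::RTL1 pollen, against 38460 and 45960 RPM in pLAT52::RTL1 and 35360 and 40600 RPM in WT Col-0 pollen, with a median log2 difference of -1.90 over its copies. The 3 ATCOPIA36 copies, AT1G50810 (which overlaps AT1G50820), AT2G15650 and AT1G35115, were lower in every length class and summed to 683 and 405 RPM in pMGH3::RTL1 pollen, against 3504 and 5367 RPM in pLAT52::RTL1 and 2184 and 2914 RPM in WT Col-0 pollen. These copies differed most at 21 and 22 nt (median -3.62) and less at 23 and 24 nt (-2.39), and their length ratio was higher in pMGH3::RTL1 pollen at 3 of 3 copies, against a median of -0.77 over all loci. The medians of both families stayed below 0 under every scaling, as they had to, since no scaling raised the differences.

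ATGP1, another Gypsy family, was higher in pMGH3::RTL1 pollen at 56 of 59 copies at 21 and 22 nt, 10 of 62 at 18 to 30 nt and 1 of 62 at 23 and 24 nt. Of all loci, 24.6%, 2.75% and 1.15% were higher in these length classes, so the 23-nt and 24-nt share of ATGP1 (1.61%) was near that of all loci. It summed at 21 and 22 nt to 7308 and 9538 RPM in pMGH3::RTL1 pollen, against 3868 and 3405 RPM in pLAT52::RTL1 and 6091 and 10260 RPM in WT Col-0 pollen. Higher at these lengths were also 14 of 24 VANDAL3, 23 of 36 ATLANTYS2, 12 of 37 ATHILA4 (32.4%) and 5 of 14 VANDAL6 copies (35.7%). Beside these, 24.6% of all loci and 41.2% of TE genes were higher, so ATHILA4 and VANDAL6 lay under the share of TE genes. The study named VANDAL6 as depleted mainly in pMGH3::RTL1 pollen, from each construct against WT Col-0 pollen over annotated TEs. The direct comparison of the constructs here, on TE genes given a family by sequence, is a different measure. In it, 0 of the 14 VANDAL6 copies were called at 18 to 30 nt (median -0.02). The 21-nt and 22-nt medians of VANDAL3, ATLANTYS2, ATHILA4 and VANDAL6 were 1.11, 1.16, 0.84 and 0.86, beside 0.95 for TE genes. They stayed above 0 under every scaling, although 0 copies of ATGP1, VANDAL3, ATLANTYS2, ATHILA4 or VANDAL6 were called higher under at least 1 of them. The 23-nt and 24-nt medians of ATGP1 (0.53), VANDAL3 (0.15) and ATLANTYS2 (0.29) turned to -0.14, -0.52 and -0.38 with the mapped reads of the study. Those of VANDAL3 and ATLANTYS2 also turned when scaled to the summed signal (-0.36 and -0.22), the microRNA genes (-0.29 and -0.15) and the sum without structural RNAs (-0.17 and -0.03). Copies of a family share reads and do not count as independent loci.

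Families below were named after their values were seen. SIMPLEHAT2 was lower at 11 of 12 copies at 23 and 24 nt (median -1.32) and HELITRONY3 at 6 of 8 (median -1.24), beside 9.63% of all loci. Their medians at 21 and 22 nt were -0.14 and -0.09. ATHILA2 was higher at 94 of 152 copies at 21 and 22 nt and at 1 of 271 at 23 and 24 nt, and ATLANTYS1 was higher at 31 of 38 copies at 21 and 22 nt and lower at 2 of 41 at 23 and 24 nt. At 21 and 22 nt 24.6% of all loci and 41.2% of TE genes were higher. At 23 and 24 nt 1.15% of all loci were higher and 9.63% lower. The medians named for SIMPLEHAT2 and HELITRONY3 stayed below 0 under every scaling, as they had to, since no scaling raised the differences. Those of ATHILA2 and ATLANTYS1 at 21 and 22 nt stayed above 0 under every scaling, though with 0 copies called higher under at least 1 of them.

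**Figure D5:**
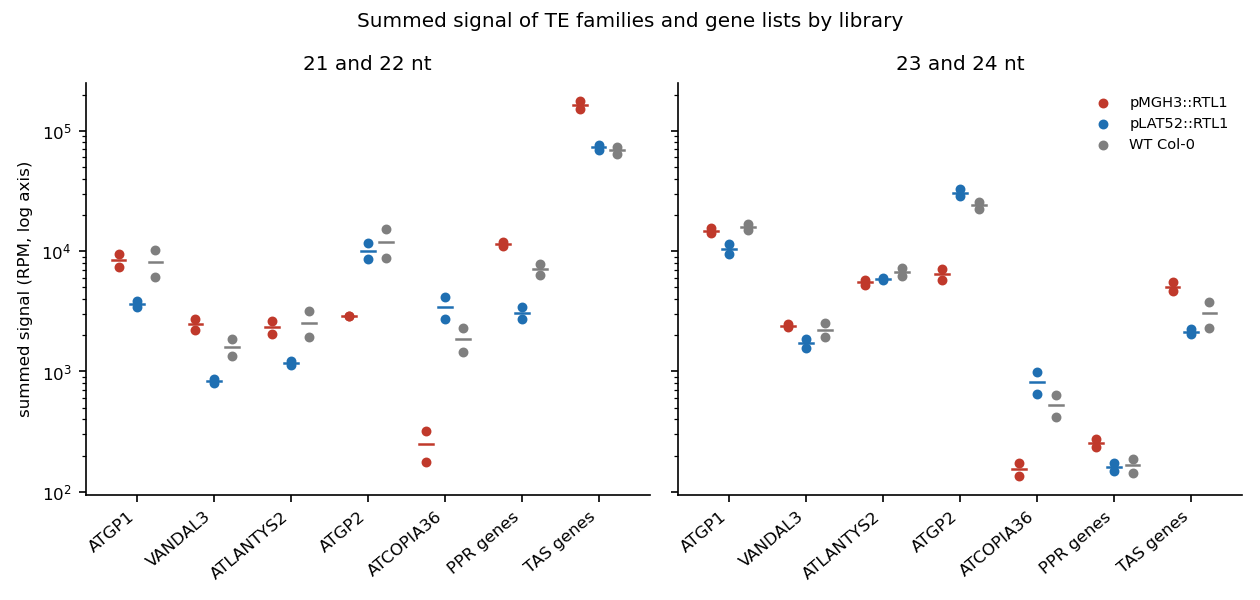
Summed signal (y axis, RPM, log axis) of TE families, pentatricopeptide repeat (PPR) genes and TAS genes at 21 and 22 nt (left panel) and at 23 and 24 nt (right panel), with a point for each library and a bar for each mean, for pMGH3::RTL1, pLAT52::RTL1 and WT Col-0 pollen from left to right. ATGP2 and ATCOPIA36 lie lowest in pMGH3::RTL1 pollen in both panels, while ATGP1, with 7308 and 9538 against 3868 and 3405 RPM at 21 and 22 nt, lies higher.

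Of 145 tested microRNA genes, 19 were higher in pMGH3::RTL1 pollen at 18 to 30 nt (13.1%, beside 2.75% of all loci) and 1 lower. At 21 and 22 nt 26 of 126 were higher (20.6%, beside 24.6% of all loci) and 1 lower. Their median was 0.29 in both classes, beside -0.00049 and 0.63 for all loci. It turned to -0.21, -0.15 and -0.03 in both classes when scaled to the summed signal, the microRNA genes and the sum without structural RNAs, and to -0.38 and -0.36 with the mapped reads of the study. At 18 to 30 nt the first 3 of these scalings called 17, 16 and 18 microRNA genes higher and 13, 12 and 8 lower, and at 21 and 22 nt 1, 0 and 2 higher and 7, 3 and 2 lower. With the mapped reads 1 gene in each class was called higher and 0 lower. Mature sequences were found for all 30 microRNA genes called in a length class, and several called genes share a seed. The seed GAAUCUU belonged to MIR172b to MIR172e, which act on AP2-like genes of flowering, UGACAGA to MIR157a to MIR157c, which act on SPL genes, UUGGAUU to MIR159a to MIR159c, which act on MYB genes, and GCCUGGC to MIR160a to MIR160c, which act on auxin response factors. Mature microRNAs of a family are nearly identical, so their genes share reads.

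MIR157a had 966 and 960 RPM in pMGH3::RTL1 pollen, against 409 and 205 RPM in pLAT52::RTL1 and 712 and 693 RPM in WT Col-0 pollen (log2 difference 1.73, adjusted p = 0.012 in limma). MIR830 had 208 and 253 RPM in pMGH3::RTL1 against 82.1 and 39.1 RPM in pLAT52::RTL1 pollen (2.00, adjusted p = 0.00936 in limma). Its commonest length was 22 nt in pMGH3::RTL1 (82.7%) and in pLAT52::RTL1 pollen (80.4%), the annotated length of miR830-5p, while miR830-3p measures 21 nt. MIR823, which acts on the DNA methyltransferase gene CMT3, had 1331 and 1670 RPM against 553 and 543 RPM (1.44, adjusted p = 0.00374 in limma). In these 3 genes the constructs did not overlap, but they were picked among called genes, so this is no further evidence. MIR159c had 150 and 91.5 RPM in pMGH3::RTL1 against 34.6 and 18.1 RPM in pLAT52::RTL1 pollen (2.18, adjusted p = 0.00866 in limma), but 97.1% to 100% of its signal in every library was shorter than its 21-nt mature sequence. MIR836, a microRNA annotated at 24 nt, was the microRNA gene called at 23 and 24 nt, with 38.7 and 31.4 RPM in pMGH3::RTL1 against 7.56 and 5.72 RPM in pLAT52::RTL1 pollen (log2 difference 2.24). At these lengths MIR836 passed the filter only through pMGH3::RTL1 pollen, and its values are given as a description. Its commonest length over all lengths was 21 nt, with 60.5% in pMGH3::RTL1 and 69.4% in pLAT52::RTL1 pollen, and it overlaps AT2G25015. MIR835, which overlaps AT1G76065, was alone in being lower with the scaling as deposited, with 359 and 386 RPM in pMGH3::RTL1 against 702 and 659 RPM in pLAT52::RTL1 pollen (-0.87, adjusted p = 0.0307 in limma). MIR845a, whose product acts on retroelements and which gave the most signal of these genes, had 617410 and 859270 RPM in pMGH3::RTL1 against 450840 and 602600 RPM in pLAT52::RTL1 pollen, and was not called (adjusted p = 0.535 in limma). It was named after its values were seen.

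Loci of secondary siRNAs, which start when a microRNA cuts a transcript, were higher in pMGH3::RTL1 pollen with the scaling as deposited. TAS genes make trans-acting siRNAs, and those of TAS1 and TAS2 start from miR173. Of the 6 TAS genes tested at 21 and 22 nt, 5 were higher, beside 24.6% of all loci, and the list summed to 151200 and 175900 RPM in pMGH3::RTL1 pollen, against 68720 and 76750 RPM in pLAT52::RTL1 and 64290 and 73010 RPM in WT Col-0 pollen. TAS2 had 24720 and 26290 RPM in pMGH3::RTL1 pollen, against 9785 and 9907 RPM in pLAT52::RTL1 and 10480 and 12260 RPM in WT Col-0 pollen at these lengths (log2 difference 1.37, adjusted p = 0.00606 in limma). MIR173, the source of their trigger, had 8518 and 10691 RPM in pMGH3::RTL1 against 9178 and 9802 RPM in pLAT52::RTL1 pollen, which overlap (log2 difference 0.01, adjusted p = 0.985 in limma). TAS1A, TAS1B and TAS1C were higher by 1.14, 0.84 and 1.27 at 21 and 22 nt. Also higher were 4 of 5 TAS genes at 23 and 24 nt, beside 1.15% of all loci. The medians of the list were above 0 in each length class under every scaling. At 21 and 22 nt 1, 1 and 3 TAS genes were called when scaled to the summed signal, the microRNA genes and the sum without structural RNAs, and 0 with the mapped reads of the study.

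A cluster of PPR genes, whose products bind RNA of organelles and whose transcripts are cut by miR161 and by TAS siRNAs, was higher at 21 of 21 tested members at 21 and 22 nt and at 19 of 21 at 18 to 30 nt. Of all loci, 24.6% and 2.75% were higher in these length classes. The cluster summed at 21 and 22 nt to 11100 and 11870 RPM in pMGH3::RTL1 pollen, against 3425 and 2727 RPM in pLAT52::RTL1 and 6304 and 7808 RPM in WT Col-0 pollen. The median log2 difference of 1.97, against 0.63 for all loci, was 1.30 at the lowest over all scalings, where between 1 and 21 members were called. AT1G62910 had 1061 and 1160.0 RPM in pMGH3::RTL1 pollen, against 295 and 224 RPM in pLAT52::RTL1 and 641 and 667 RPM in WT Col-0 pollen (2.10, adjusted p = 0.00318 in limma). AT1G63230 had 351 and 314 RPM in pMGH3::RTL1 against 75.3 and 12.7 RPM in pLAT52::RTL1 pollen (3.36, adjusted p = 0.0151 in limma). At 23 and 24 nt 4 members could be tested and 0 were called by limma or limma-voom (2 were higher at an unadjusted p under 0.05), with summed values of 237 and 276 RPM in pMGH3::RTL1 against 173 and 150 RPM in pLAT52::RTL1 pollen. MIR161 had 197790 and 230520 RPM in pMGH3::RTL1 pollen, against 93198 and 107510 RPM in pLAT52::RTL1 and 109110 and 142970 RPM in WT Col-0 pollen at 21 and 22 nt (1.09, adjusted p = 0.0145 in limma). Many members are close copies that share reads.

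A list of genes was taken from examples of lost siRNAs in pLAT52::RTL1 pollen, chosen on these same libraries and so not independent evidence. All 4 members were higher in pMGH3::RTL1 pollen at 18 to 30 nt. GAE4, an epimerase of cell wall sugar synthesis that overlaps AT2G45315, had 602 and 394 RPM in pMGH3::RTL1 pollen, against 102 and 24.8 RPM in pLAT52::RTL1 and 163 and 332 RPM in WT Col-0 pollen (log2 difference 3.24, adjusted p = 0.00935 in limma). CDA1, a cytidine deaminase that overlaps AT2G19572, had 83.8 and 83.8 RPM in pMGH3::RTL1 against 18.4 and 10.97 RPM in pLAT52::RTL1 pollen (2.48, adjusted p = 0.00172 in limma). AT3G11420 was higher by 2.22 (adjusted p = 0.00106 in limma) and AT1G63230, the PPR gene above, by 3.07. A list of examples for pMGH3::RTL1 pollen was chosen in the same way, and all 4 members were lower at 18 to 30 nt. DAZ2, a zinc finger protein of the male germline, had 8.49 and 5.84 RPM in pMGH3::RTL1 pollen, against 52.2 and 53.4 RPM in pLAT52::RTL1 and 44.3 and 77.0 RPM in WT Col-0 pollen (log2 difference -2.74). It passed the filter only through pLAT52::RTL1 pollen, and its values are given as a description. TET12, a tetraspanin of sperm cells that overlaps AT5G23035, was lower with a log2 difference of -1.34 (adjusted p = 0.0306 in limma), AT3G06890 with -1.46 (adjusted p = 0.00944 in limma) and AT1G24530 with -1.21 (adjusted p = 0.0239 in limma).

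Male germline genes were lower or not called. DAZ2 and TET12 were the 2 members lower among 12 tested at 18 to 30 nt (16.7%, beside 3.54% of all loci) and 0 were higher. Both are also examples that the study chose on these same libraries, so this share is not independent evidence. When scaled to the summed signal, the microRNA genes and the sum without structural RNAs 7, 5 and 4 members were lower. The list summed to 618 and 600.4 RPM in pMGH3::RTL1 pollen, against 799.8 and 1206 RPM in pLAT52::RTL1 and 849 and 1153 RPM in WT Col-0 pollen. PCR11, a membrane protein gene expressed in sperm cells, was also lower at 21 and 22 nt, with 54.1 and 59.9 RPM in pMGH3::RTL1 against 118 and 139 RPM in pLAT52::RTL1 pollen (log2 difference -1.16, adjusted p = 0.0228 in limma). Of 7 members tested at 23 and 24 nt, 0 were called by limma or limma-voom (2 were lower at an unadjusted p under 0.05), with a median of -0.89, while limma called 4, 4 and 2 lower under the same scalings. The medians of this list were below 0 under every scaling, as they had to be, since no scaling raised the differences.

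Vegetative cell genes split. At 18 to 30 nt, 2 of 16 were higher and 2 lower (12.5% each, beside 2.75% and 3.54% of all loci). The median of 0.35 turned to -0.16, -0.09 and -0.32 when scaled to the summed signal, the microRNA genes and the mapped reads of the study, under which 2, 2 and 0 were higher and 4, 3 and 2 lower. ANX2, a receptor kinase that keeps the pollen tube intact, had 119 and 132 RPM in pMGH3::RTL1 against 52.2 and 37.2 RPM in pLAT52::RTL1 pollen (log2 difference 1.48, adjusted p = 0.0096 in limma). AT3G01270, a pectate lyase gene, had 4215 and 3057 RPM against 1639 and 1087 RPM (1.43, adjusted p = 0.015 in limma). ACT12 had 98.2 and 76.9 RPM in pMGH3::RTL1 pollen, against 1891 and 738 RPM in pLAT52::RTL1 and 33.6 and 64.7 RPM in WT Col-0 pollen (-3.75, adjusted p = 0.000835 in limma). PPME1, a pollen pectin methylesterase, had 309.8 and 339.6 RPM against 952 and 606 RPM in pLAT52::RTL1 pollen (-1.23, adjusted p = 0.022 in limma). PRF5, a pollen profilin, was lower at 23 and 24 nt, with a log2 difference of -2.17. It passed the filter only through pLAT52::RTL1 pollen, and the difference is given as a description. Genes of the tapetum, the sporophytic layer that feeds the pollen, stayed under the filter, with 10.6 and 13.2 RPM over 9 genes in pMGH3::RTL1 and 26.6 and 41.0 RPM in pLAT52::RTL1 pollen. Of 5 leaf photosynthesis genes 0 were called at 18 to 30 nt by limma or limma-voom (1 was higher at an unadjusted p under 0.05), with summed values of 463 and 411 RPM in pMGH3::RTL1 against 214 and 384 RPM in pLAT52::RTL1 pollen.

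Among genes of RNA silencing and DNA methylation, 1 of 20 was higher at 18 to 30 nt (5%, beside 2.75% of all loci), and at 21 and 22 nt 3 of 11 were higher (27.3%, beside 24.6%) and 1 lower. When scaled to the summed signal, the microRNA genes and the sum without structural RNAs, 0, 0 and 1 were higher and 4, 3 and 2 lower at 18 to 30 nt, and 0 were higher and 1 lower at 21 and 22 nt. AGO1, the main slicer of microRNA pathways, had 344 and 448 RPM in pMGH3::RTL1 pollen, against 193 and 147 RPM in pLAT52::RTL1 and 238 and 409 RPM in WT Col-0 pollen at 18 to 30 nt (log2 difference 1.22, adjusted p = 0.0181 in limma). CMT3, the target of miR823, and DCL1, the Dicer of microRNAs, which overlaps AT1G01046 and AT1G01050, were higher at 21 and 22 nt, by 0.91 and 0.81 (adjusted p = 0.0427 and 0.0481 in limma). These 3 calls were lost under at least 1 of the 4 planned scalings. AGO2, an antiviral slicer, was lower at 21 and 22 nt, with 339 and 312 RPM in pMGH3::RTL1 against 560.4 and 614 RPM in pLAT52::RTL1 pollen (-0.85, adjusted p = 0.0345 in limma), although its values at 18 to 30 nt were 1517 and 1894 RPM in pMGH3::RTL1 against 981 and 1246 RPM in pLAT52::RTL1 pollen (adjusted p = 0.119 in limma). Of 5 imprinted genes of the triploid block, the seed failure after crosses with unreduced pollen, 2 could be tested in each length class. At 21 and 22 nt 0 were called by limma or limma-voom (1 was lower at an unadjusted p under 0.05). At 23 and 24 nt 1 of the 2, PEG9, was lower (50%, beside 9.63% of all loci). PEG9 had 36.1 and 52.3 RPM in pMGH3::RTL1 pollen at these lengths, against 439.5 and 237 RPM in pLAT52::RTL1 and 37.2 and 18.4 RPM in WT Col-0 pollen (log2 difference -2.87, adjusted p = 0.00173 in limma). PEG9 stood near the WT Col-0 level in pMGH3::RTL1 pollen and far above it in pLAT52::RTL1 pollen.

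The snoRNA and tRNA genes called were mostly higher in pMGH3::RTL1 pollen with the scaling as deposited. Beside 2.75% of all loci, 32.6% of snoRNA and 4.94% of tRNA genes were higher at 18 to 30 nt. Of 46 snoRNA genes 15 were higher and 0 lower at 18 to 30 nt, with 6140 and 4159 RPM in pMGH3::RTL1 pollen, against 2489 and 2220 RPM in pLAT52::RTL1 and 1740 and 2181 RPM in WT Col-0 pollen. Their median of 1.03 stayed above 0 under every scaling, although 0 were called under at least 1. Of 607 tRNA genes 30 were higher and 1 lower, with 446300 and 443600 RPM in pMGH3::RTL1 pollen, against 283600 and 309800 RPM in pLAT52::RTL1 and 139300 and 375400 RPM in WT Col-0 pollen. Their median of 0.31 turned to -0.19, -0.12 and -0.01 when scaled to the summed signal, the microRNA genes and the sum without structural RNAs, with 12, 12 and 15 higher and 8, 6 and 3 lower, and to -0.35 with the mapped reads of the study.

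The WT Col-0 libraries, which took no part in the comparison, are set beside the called loci as a description, by nearness on the log2 scale. At 23 and 24 nt the WT Col-0 mean was nearer to pLAT52::RTL1 pollen at 190 of the 221 TE genes lower in pMGH3::RTL1 pollen (86%), beside 49.6% of all tested TE genes. At 18 to 30 nt it was so at 114 of 120 lower TE genes (95%), beside 42.8% of all tested TE genes. At 21 and 22 nt the WT Col-0 mean was nearer to pMGH3::RTL1 pollen at 689 of the 744 TE genes higher there (92.6%), beside 78.4% of all tested TE genes, and nearer to pLAT52::RTL1 pollen at all 42 lower TE genes. Over all classes of locus, the WT Col-0 mean was nearer to pLAT52::RTL1 pollen at 247 and nearer to pMGH3::RTL1 pollen at 151 of the 398 loci lower at 18 to 30 nt. The WT Col-0 libraries differed between themselves in RNA length, and the part of this in these counts was not tested.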

How the data were processed

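Small RNAs of whole mature pollen were sequenced by the authors and aligned with Bowtie to TAIR10, keeping perfect matches. The deposited signal gives, for each gene and RNA length, the reads divided by their genomic hits and scaled by the authors to RPM. The methods give the RPM scale as relative to filtered 18-nt to 30-nt reads with perfect matches, but the deposited values of a library summed to 3743341 to 8672909 RPM, so the total could not be matched to this. The strand of counting is not given in the sources used here. The value of 1 read in each library was taken as its most frequent RPM value, to recover hit-weighted reads.

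The signal was summed per locus over 18 to 30 nt, 21 and 22 nt, and 23 and 24 nt. Loci that averaged 12 or more hit-weighted reads over the libraries were tested on log2(signal + 1) with limma 3.58.1 in R 4.3.3 (empirical Bayes with a variance trend, Benjamini-Hochberg over all loci tested, threshold 0.05), on the 2 pMGH3::RTL1 and 2 pLAT52::RTL1 libraries. Log2 differences are pMGH3::RTL1 minus pLAT52::RTL1, and the pseudocount of 1 understates those of low loci. The length ratio was tested as the difference of the log2 signals of both length classes. The p-values measure the spread between independent lines. The script was tested on simulated data. Tables and figures used Python 3.11.15, numpy 2.4.6, pandas 2.3.3, SciPy 1.17.1 and matplotlib 3.10.9.

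Of 33217 loci, 32762 matched RefSeq genes. Families were given to 1427 of 3895 TE genes (36.6%) with BLAST+ 2.17.0. The source was 1642 windows that name a single family, taken from the study's list of differentially methylated regions. The study found ATGP2 and ATGP2N poorly represented among its hypomethylated regions, so families are not covered evenly. ATGP2N, which the study named as strongly affected in pMGH3::RTL1 pollen, is not described here. TE genes count as pericentromeric in 1 Mb windows with at least 50% TE genes.

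Named were, in each length class, the 5 largest called differences in each direction, the 3 largest of microRNA and of TE genes, the 3 largest of the length ratio, RTL1, MGH3, example genes of the study, and up to 6 called members of each list. The lists were TAS genes, PPR genes, male germline, vegetative cell, RNA silencing, imprinted, tapetum and leaf genes, and the RTL family. The members and lists were chosen with earlier results of these data known. The other 4 libraries, from sorted pollen, were not analysed here. The alternatives tried were 5 scalings, other filters and pseudocounts, no variance trend, WT Col-0 sharing the spread, limma-voom, 1 locus of each identical set, a replicate block and leaving out each library.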

Additional observations from a re-analysis of the deposited data

How the results depend on the processing

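The counts of called loci moved by over 1.5 times in 68 recomputations and by less in 64, while the named loci kept their direction in all, with 1618 calls kept, 3 gained and 399 lost, and the medians of lists and families relative to all loci moved by more than the spread of libraries in 221 and by less in 1143. Higher and lower loci are given in this order. With the summed signal as the scale there were 142 and 2075 at 18 to 30 nt, 85 and 169 at 21 and 22 nt, and 22 and 2225 at 23 and 24 nt. With the microRNA genes there were 148 and 1757, 70 and 137, and 27 and 2145, and without structural RNAs 190 and 1334, 90 and 117, and 40 and 1736. With the mapped reads of the study, chosen after seeing the data, there were 12 and 355, 22 and 86, and 2 and 540. The median ratio gave 314 and 406, 1253 and 154, and 90 and 728. Without a filter there were 80 and 177, 93 and 52, 1 and 77, and 2 and 5 in the length ratio, and with a mean of at least 50 reads 291 and 251, 420 and 113, 77 and 309, and 21 and 474. A pseudocount of 0.1 gave 295 and 366, 1208 and 144, 66 and 477, and 29 and 1299, and a pseudocount of 5 gave 348 and 498, 1282 and 155, 97 and 873, and 33 and 1250. Without a variance trend there were 73 and 313, 1070 and 138, 34 and 638, and 19 and 739. With WT Col-0 sharing the spread there were 122 and 288, 533 and 94, 85 and 778, and 13 and 310, and with limma-voom 335 and 268, 1360 and 137, and 75 and 354. The causes were not tested.

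Leaving out each library gave 268 to 393 higher and 231 to 940 lower loci at 18 to 30 nt, 0 to 123 and 0 to 37 at 21 and 22 nt, 21 to 215 and 182 to 1852 at 23 and 24 nt, and 14 to 33 and 195 to 1253 in the length ratio. These fits leave a group with 1 library, assumed to vary like the other group.

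Deviations of same-numbered libraries had a correlation of 0.002 across the 11241 loci tested at 18 to 30 nt. This is a single correlation over summed lengths, and a shared replicate effect at some loci or lengths was not tested. A fit with the replicate block called 704 higher and 900 lower loci at 18 to 30 nt, against 309 and 398 without the block. At 23 and 24 nt it called 202 and 1146, against 80 and 672, and in the length ratio 40 and 1678, against 31 and 1335. At 21 and 22 nt the calls fell to 816 and 125, from 1234 and 147. A locus with few reads in a length class could not be tested, and 2 lines per construct limit the precision.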

Other observations

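Superfamilies of TE genes, named after their values were seen, differed in which length class held their calls. Of 22 DNA/HAT copies tested at 23 and 24 nt, 12 were lower (54.5%) and 0 higher in pMGH3::RTL1 pollen, with a median log2 difference of -1.09. Of 33 RC/Helitron copies 9 were lower at these lengths (27.3%), beside 9.63% of all loci. These counts include the SIMPLEHAT2 and HELITRONY3 copies given above, of which 11 and 6 were lower, and are not separate results. Of 6 copies of TAG2, another DNA/HAT family, 0 were lower at these lengths. LTR/Gypsy copies were higher at 359 (59.3%, beside 24.6% of all loci) and lower at 16 of 605 tested at 21 and 22 nt. At 23 and 24 nt they were higher at 10 and lower at 40 of 871 tested (1.15% and 4.59%, beside 1.15% and 9.63% of all loci). Under the other scalings between 3 and 13 DNA/HAT and between 1 and 21 RC/Helitron copies were lower at 23 and 24 nt, and between 3 and 362 LTR/Gypsy copies were higher at 21 and 22 nt.

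Several more coding genes with calls in opposite directions were named after their values were seen. ABCG31, a transporter of the pollen coat, had log2 differences of 1.30 at 21 and 22 nt and -2.18 at 23 and 24 nt. UPL4, a ubiquitin ligase gene, had log2 differences of 0.98 and -2.26 in the same classes.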
